A study of Mus musculus with 3 samples.

Results

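Lipocalins are small secreted proteins that fold into a barrel around a pocket for a greasy ligand, and 10 genes of this family were followed here through mouse fetal liver, bone marrow and adult liver. They are the major urinary protein genes Mup1, Mup3 and Mup5, the orosomucoid genes Orm1 and Orm2, the plasma carrier genes Rbp4, Ambp and Apom, the neutrophil lipocalin gene Lcn2, and Apod. The probes were taken by name: every array probe whose current or older gene name is one of the 10. The choice of the 10 genes was made with earlier results of these data known. That gave 11 probes of 41174 gene probes, Mup3 having 2, and 10 genes of the 19712 that could be named.

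The series compares gene expression between these tissues. All 3 samples were total RNA of C57BL/6 mice with no further genotype or treatment stated, and each was hybridised once, with the dye Cy3, to an Agilent array. The adult liver came from mice 12 wk of age and the fetal liver from gestation day 13.5. The label wording does not settle whether the same age applies to the bone marrow, and neither sex nor the number of mice is stated in the sources used here. With 1 array per tissue no comparison has a replicate, so no test was possible, and every difference below describes these 3 RNA samples. A value after ± is the scanner software's own error of the spot, which does not cover differences between animals.

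In rodents the major urinary proteins are made by hepatocytes under growth hormone, pass through the kidney into urine and carry volatile scents. The other liver members are plasma proteins: retinol-binding protein carries vitamin A, orosomucoids are acute phase proteins that bind drugs and steroids, and apolipoprotein M carries sphingosine 1-phosphate on high-density lipoprotein. Lipocalin 2 instead binds bacterial iron carriers and is stored in the specific granules of neutrophils. The fetal liver at this age is a main site of blood formation, a role that the bone marrow takes over after birth.

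Of the 43379 gene spots of each array, 58.8% in bone marrow, 58.7% in fetal liver and 52.6% in adult liver were well above background, and none was saturated. Each array was scaled to the 75th percentile of its gene signals, which was 296 for adult liver, against 387 for fetal liver and 894 for bone marrow. The tissues carried their defining markers. Adult liver had all 8 hepatocyte markers well above background, against 6 in fetal liver and 4 in bone marrow, their summed signals, here and below before scaling, being in this order of tissues 881640, 170091 and 526; albumin, the most abundant plasma protein, was not well above background in bone marrow. Of 10 neutrophil markers, 2, 10 and 10 were well above background, with summed signals of 840, 57013 and 1800700, and for 6 erythroid markers the sums were 51065, 585940 and 784960. After scaling, the erythroid list had a median log2 difference of 0.90 for fetal liver minus bone marrow, towards fetal liver. In whole tissue, fewer cells of a type and less RNA per cell cannot be told apart.

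Apart from Apod, which was not well above background in any tissue, each of the 10 genes was measured in at least 1 tissue, and Mup3, Lcn2, Rbp4, Ambp and Apom in all 3. Where a gene was not well above background on the dimmer side, "at least" before its fold marks a lower bound. Between fetal and adult liver, 6 of 9 members compared were at least 4-fold apart, all 6 of them towards adult liver. For scale, 26.2% of all genes compared were at least 4-fold apart and 14.2% were so in that direction. The median member difference, bounds included, was -9.16 on the log2 scale, fetal minus adult, against 0.05 over all genes. Between bone marrow and adult liver, 9 of 9 members were at least 4-fold apart, against 33.8% of all genes; 8 were higher in adult liver (18.8% of all genes) and Lcn2 alone was higher in bone marrow (15.0% of all genes). The medians of that comparison, bone marrow minus adult liver, were -12.72 for the members and -0.09 for all genes. Between fetal liver and bone marrow, 7 of 8 members were at least 4-fold apart, against 17.6% of all genes. Mup1, Rbp4, Ambp and Apom were higher in fetal liver (9.29% of all genes), and Orm1, Orm2 and Lcn2 in bone marrow (8.32% of all genes), with medians, fetal liver minus bone marrow, of 2.35 for the members and 0.26 for all genes. The 3 comparisons share arrays, so their counts are not independent. Nor are the members within a comparison, since the Mup genes, and likewise Orm1 and Orm2, are near copies whose probes may share signal.

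**Figure D1:**
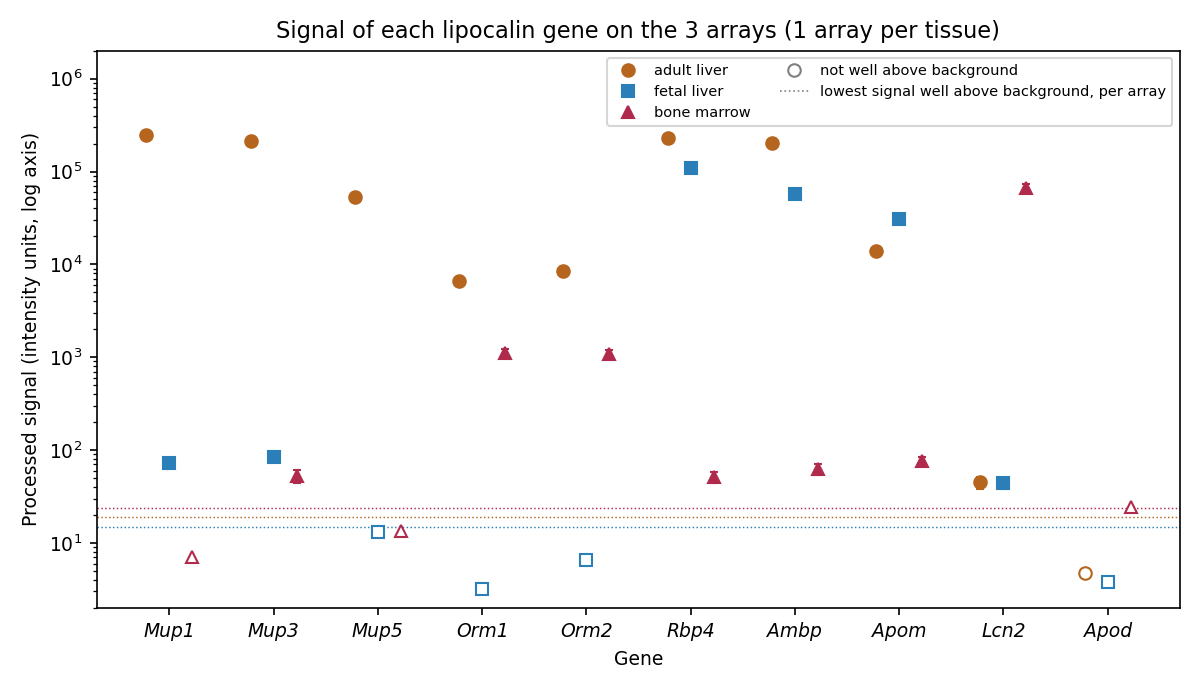
Processed signal of each of the 10 genes (log axis, intensity units) on the 3 arrays, 1 per tissue; bars are the scanner's spot error, open symbols are not well above background, and dotted lines mark the lowest signal well above background on each array. The Mup and Orm genes were bright in adult liver only or mainly, Rbp4, Ambp and Apom were bright in both livers, Lcn2 was bright in bone marrow, and Apod was dim everywhere. Heights of different genes are not comparable, since they come from different probes.

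The 3 major urinary protein genes were bright in adult liver and at or near background elsewhere. The Mup1 probe read 248000 ± 24800 in adult liver, against 73.3 ± 8.20 in fetal liver and 7.14 in bone marrow, the last not well above background. After scaling, adult liver was 4424-fold above fetal liver (log2 difference -12.11 ± 0.22, fetal minus adult) and at least 31605-fold above bone marrow. Mup1 was thus still measurable in fetal liver, at least 7.145-fold above bone marrow, a difference that stayed at least 4-fold in 4 of 8 alternatives. The 4 include the probe rules, which could not move it, since Mup1 has no second probe. The Mup3 probe used here read 214000 ± 21400 in adult liver, against 83.6 ± 9.25 in fetal liver and 52.8 ± 8.11 in bone marrow. Its adult level was 3347-fold that of fetal liver (-11.71 ± 0.22) and 12241-fold that of bone marrow (-13.58 ± 0.26), while fetal liver and bone marrow lay 3.658-fold apart, within 4-fold and in an order that turned when arrays were scaled to spike-in controls. Mup5 read 52800 ± 5280 in adult liver, against 13.2 in fetal liver and 13.5 in bone marrow. The last 2 were not well above background, which sets its adult level at least 4602-fold above fetal liver and at least 6729-fold above bone marrow.

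The second Mup3 probe gave 14000, 3.38 and 5.24 in the same order of tissues, well above background in adult liver only. Its bounds, at least 1220-fold over fetal liver and at least 1784-fold over bone marrow, point the same way as the first probe, but it did not detect the low Mup3 signal that the first probe read in fetal liver and bone marrow.

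Mup genes are near-identical copies, so a probe may report several of them. In the array file the Mup1 probe lies on mm9 chr4:60511965-60512188, minus strand, spanning 224 bases where the usual span of a probe is 60, and the accessions listed with it belong to Mup1, Mup2 and Mup10. The Mup3 probe lies at chr4:61744500-61744548 and the Mup5 probe at chr4:61496097-61496156, both on the minus strand and each listed with its own gene only. A search of assigned gene names and probe descriptions for major urinary proteins, added after the values were seen, found 12 probes in all, of which 11 were placed and all 11 lie on chromosome 4. Signals of these 12 ran from 4940 to 248000 in adult liver, against 3.04 to 138 in fetal liver and 4.81 to 52.8 in bone marrow. The number well above background was 12, 5 and 1. In all 12 adult liver exceeded each other tissue at least 4-fold, and the ratio of adult to fetal liver ran from 430.6 to 7494, bounds included. Of all genes, 14.2% were at least 4-fold higher in adult than in fetal liver, and 18.8% than in bone marrow. Mup4 read 138 in fetal liver against 137000 in adult liver, a 1298-fold difference.

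A start-site window was available for Mup3 and is shown because the Mup genes were high in the same tissue. It holds the 250 bases before the RefSeq start on build GRCm38.p6, chr4:62087318-62087567, minus strand, written 5′ to 3′. None of the motifs searched is in it, so no letter is in capitals. The TATA box was searched for only as the exact string TATAAA, so the run tatataag near the end of the window was not counted.
Mup3: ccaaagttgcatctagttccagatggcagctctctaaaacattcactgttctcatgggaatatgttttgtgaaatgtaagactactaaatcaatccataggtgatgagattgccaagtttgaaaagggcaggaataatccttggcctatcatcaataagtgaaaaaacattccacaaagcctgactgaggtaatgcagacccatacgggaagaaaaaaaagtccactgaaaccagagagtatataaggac
Aligned over 250 bases, this window was identical to those of 13 other Mup genes at 43.2% to 89.5% of positions, with a median of 61%; the closest was Mup21. Against the windows of 6 other members it was identical at 46.1% to 50.3%. The Mup windows do not all end at the same point of their shared sequence. The run tataaggac ends the Mup3 window but is followed by further bases in those of Mup2 and Mup10. Such offsets lower the identity of windows aligned end to end, so the values among Mup genes may understate how alike the promoters are.

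Orm1 and Orm2, which encode orosomucoids of the plasma, were high in adult liver, lower in bone marrow and not well above background in fetal liver. Orm1 read 6570 ± 657 in adult liver, against 3.16 in fetal liver and 1120 ± 112 in bone marrow. Orm2 read 8420 ± 842, 6.59 and 1080 ± 108 in the same order. Fetal liver was therefore the lowest of the 3 tissues for both genes. Adult liver lay at least 572.7-fold above fetal liver for Orm1 and at least 733.9-fold for Orm2. It lay 17.72-fold above bone marrow for Orm1 (log2 difference -4.15 ± 0.20, bone marrow minus adult liver) and 23.55-fold for Orm2 (-4.56 ± 0.20), differences that shrank to -1.40 and -1.81 when arrays were scaled to spike-in controls. Bone marrow in turn lay at least 32.32-fold above fetal liver for Orm1 and at least 31.17-fold for Orm2.

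The bone marrow signal of both Orm genes stood beside hepatocyte markers that were low there. Of the 8 hepatocyte markers, Alb, Fga, Cps1 and Cyp2e1 were not well above background in bone marrow, and Ahsg, Fgb, Serpinc1 and Tat read 74.2, 32.2, 24.3 and 372. The neutrophil list was at its highest in bone marrow, as above, and its part in the Orm signal was not tested. Orm3, the third gene of the cluster, differed from them: it read 551 in adult liver and was not well above background in fetal liver (3.33) or bone marrow (5.23).

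The windows before the starts of Orm2 and Orm3 are shown because neighbouring copies of one gene differed in bone marrow. Orm2 lies at GRCm38.p6 chr4:63362199-63362448 and Orm3 at chr4:63355908-63356157, both on the plus strand, and capitals mark the TATA box motif TATAAA and the C/EBP palindrome TTGCGCAA.
Orm2: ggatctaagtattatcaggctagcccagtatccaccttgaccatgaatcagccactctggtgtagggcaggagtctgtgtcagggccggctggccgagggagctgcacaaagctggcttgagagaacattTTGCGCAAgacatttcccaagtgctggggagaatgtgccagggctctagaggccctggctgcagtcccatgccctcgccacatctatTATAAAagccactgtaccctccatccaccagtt
Orm3: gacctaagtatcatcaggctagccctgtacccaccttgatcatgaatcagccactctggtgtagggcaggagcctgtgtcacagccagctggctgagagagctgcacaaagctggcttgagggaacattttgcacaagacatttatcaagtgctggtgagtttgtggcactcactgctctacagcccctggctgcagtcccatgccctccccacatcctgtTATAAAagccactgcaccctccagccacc
TATAAA lies 33 to 28 bases before the start in Orm2 and 29 to 24 bases before it in Orm3. TTGCGCAA, searched for after the windows were seen, lies 120 to 113 bases before the start in Orm2 and is not in the Orm3 window. The matching run of Orm3 is ttgcacaa, with an a in place of a g, so this difference is one of the exact string only. Its part in the bone marrow signal was not tested. The windows were identical at 85.9% of aligned positions. The Orm1 probe lies on mm9 chr4:63006483-63007090, plus strand, a span of 608 bases, and the Orm2 probe at chr4:63024979-63025038; cross-signal between these near copies cannot be told apart from their own.

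Rbp4, Ambp and Apom, carriers of the plasma, were bright in both livers and low in bone marrow. Rbp4 encodes the retinol carrier that leaves the hepatocyte bound to transthyretin. It read 227000 ± 22700 in adult liver, against 110000 ± 11000 in fetal liver and 51.6 ± 7.06 in bone marrow. The adult level was 2.698-fold the fetal level (-1.43 ± 0.20), within 4-fold, and 13287-fold that of bone marrow (-13.70 ± 0.24). Ambp encodes a precursor that is cut into alpha-1-microglobulin, a heme-binding lipocalin, and bikunin, a protease inhibitor. Its signals were 204000 ± 20400, 57300 ± 5730 and 62.8 ± 8.75, so that adult liver was 4.655-fold above fetal liver (-2.22 ± 0.20), just past 4-fold and so in 6 of 9 alternatives, and 9811-fold above bone marrow. The 6 include the probe rules and the leaving out of bounds, which could not move a gene without a second probe. The gap between the livers fell below 4-fold with quantile normalization (-1.65), without scaling (-1.83) and with spike-in scaling (-1.67).

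Apom was the only one of the 10 genes whose signal was higher in fetal than in adult liver beyond its spot error. It read 14000 ± 1400 in adult liver, against 30800 ± 3080 in fetal liver and 75.6 ± 8.97 in bone marrow. Fetal liver lay 1.683-fold above adult liver (0.75 ± 0.20), within 4-fold, and kept that direction under all 9 alternative ways of processing, with log2 differences from 0.74 to 1.30. Those of the 9 that changed only the probe rule or left out bounds could not move it, since Apom has no second probe. Adult liver was 559.3-fold and fetal liver 941.1-fold above bone marrow. Fetal liver was likewise above bone marrow by 4925-fold for Rbp4 (12.27 ± 0.24) and by 2108-fold for Ambp (11.04 ± 0.25).

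The smaller gap between the livers can be set beside that of the hepatocyte markers. In all 8 of them adult liver exceeded fetal liver at least 4-fold, with a median of 18.8-fold, against 14.2% of all genes past 4-fold in that direction. The smallest gaps among them were those of Ahsg, at 4.212-fold, and Alb, at 5.642-fold, while Cps1 and Cyp2e1 had bounds of at least 2744-fold and at least 3600-fold. Rbp4 and Apom thus lay outside the range of that list, and Ambp lay close to Ahsg.

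Windows before the starts of Rbp4 and Ambp are shown as those of carriers bright in both livers. The second of 2 Rbp4 windows lies at GRCm38.p6 chr19:38124812-38125061 and the Ambp window at chr4:63154173-63154422, both on the minus strand. Capitals again mark TATAAA, found in Rbp4 at 28 to 23 bases before the start and not in Ambp.
Rbp4: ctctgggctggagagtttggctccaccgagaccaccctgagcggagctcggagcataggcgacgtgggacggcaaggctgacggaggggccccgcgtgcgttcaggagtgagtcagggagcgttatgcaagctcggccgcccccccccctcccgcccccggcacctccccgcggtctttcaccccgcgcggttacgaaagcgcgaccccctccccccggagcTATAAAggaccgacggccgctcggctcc
Ambp: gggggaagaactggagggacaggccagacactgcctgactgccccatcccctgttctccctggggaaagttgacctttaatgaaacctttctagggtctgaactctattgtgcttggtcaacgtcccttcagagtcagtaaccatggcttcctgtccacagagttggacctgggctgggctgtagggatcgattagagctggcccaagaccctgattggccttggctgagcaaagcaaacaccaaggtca
RefSeq windows were matched for 7 of the 10 members. Both strands of each were searched for the STAT5 motif TTCNNNGAA, the string TTGCNNCAA, the HNF4 motif CAAAGTCCA, TATAAA and the C/EBP palindrome TTGCGCAA. TTGCNNCAA was planned as a C/EBP motif but is longer than the palindrome, which does not match it. Its counts therefore do not bear on the palindrome. The first 3 strings listed, matched exactly, were in 0 of the 5 windows of members highest in adult liver. TATAAA was in 2 of the 5 and TTGCGCAA in 1, that of Orm2. Near forms, such as the tatataag of Mup3, were not counted. Among all 32851 RefSeq windows of the same length, the shares with a match were 7.02%, 1.74%, 0.384%, 12.4% and 0.164% in that order. These letters are a description of the windows and say nothing of binding.

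On mm9 the Rbp4 probe lies at chr19:38191129-38191188, the Apom probe at chr17:35267047-35267106 and the Ambp probe at chr4:62804386-62804711, all on the minus strand. The Ambp probe spans 326 bases. No gene annotation of that build was used here, so exons and introns are not named.

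Lcn2 had the opposite pattern to the liver genes. Its probe, at mm9 chr2:32241037-32241281 on the minus strand, read 44.8 ± 6.69 in adult liver, against 44.3 ± 5.83 in fetal liver and 67200 ± 6720 in bone marrow. Bone marrow was 496.6-fold above adult liver (8.96 ± 0.26) and 656.7-fold above fetal liver (-9.36 ± 0.24, fetal liver minus bone marrow). The livers lay 1.322-fold apart, with a log2 difference of -0.40 ± 0.29 whose sign turned when arrays were scaled to spike-in controls, so their order is not settled.

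The neutrophil list around Lcn2 separated the tissues differently. In all 10 markers bone marrow exceeded adult liver and fetal liver at least 4-fold, the latter with a median of 108-fold. Of all genes, 15.0% and 8.32% were so. Against adult liver, however, 8 of the 10 were at least 4-fold higher in fetal liver, against 12.0% of all genes. The median over the list was at least 14.6-fold, since only S100a8 and S100a9 were well above background in adult liver and the rest are lower bounds. Elane, at least 1.906-fold, and Retnlg, at least 3.496-fold, did not reach 4-fold. Mpo, myeloperoxidase of the primary granules, read 21.4 in adult liver, against 19600 in fetal liver and 250000 in bone marrow. Ltf and Camp, which encode the specific granule proteins lactoferrin and cathelicidin, read 4.65, 851 and 296000, and 4.20, 1270 and 229000. Lcn2, whose product is stored in the same granules, showed no such gap between the livers. Mmp9, a protease that binds lipocalin 2, read 6.73, 27.3 and 26801 in the same order, and it too was high in bone marrow; between the livers it had only a bound, of 0.14 on the log2 scale, since it was not well above background in adult liver.

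Apod, which encodes a lipocalin of high-density lipoprotein and of glia and fibroblasts, read 4.75 in adult liver, against 3.75 in fetal liver and 24.3 ± 6.34 in bone marrow. None was well above background, so no fold was formed. Its probe, at mm9 chr16:31300545-31303530 on the minus strand, spans 2986 bases. The 7 fibroblast markers were all well above background in every tissue, with summed signals of 14705, 30231 and 16678 before scaling and a median scaled log2 difference of -0.94 for bone marrow minus adult liver, while 2, 4 and 4 of the 5 Schwann and glial markers and 1, 1 and 2 of the 5 adipocyte markers were.

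**Figure D2:**
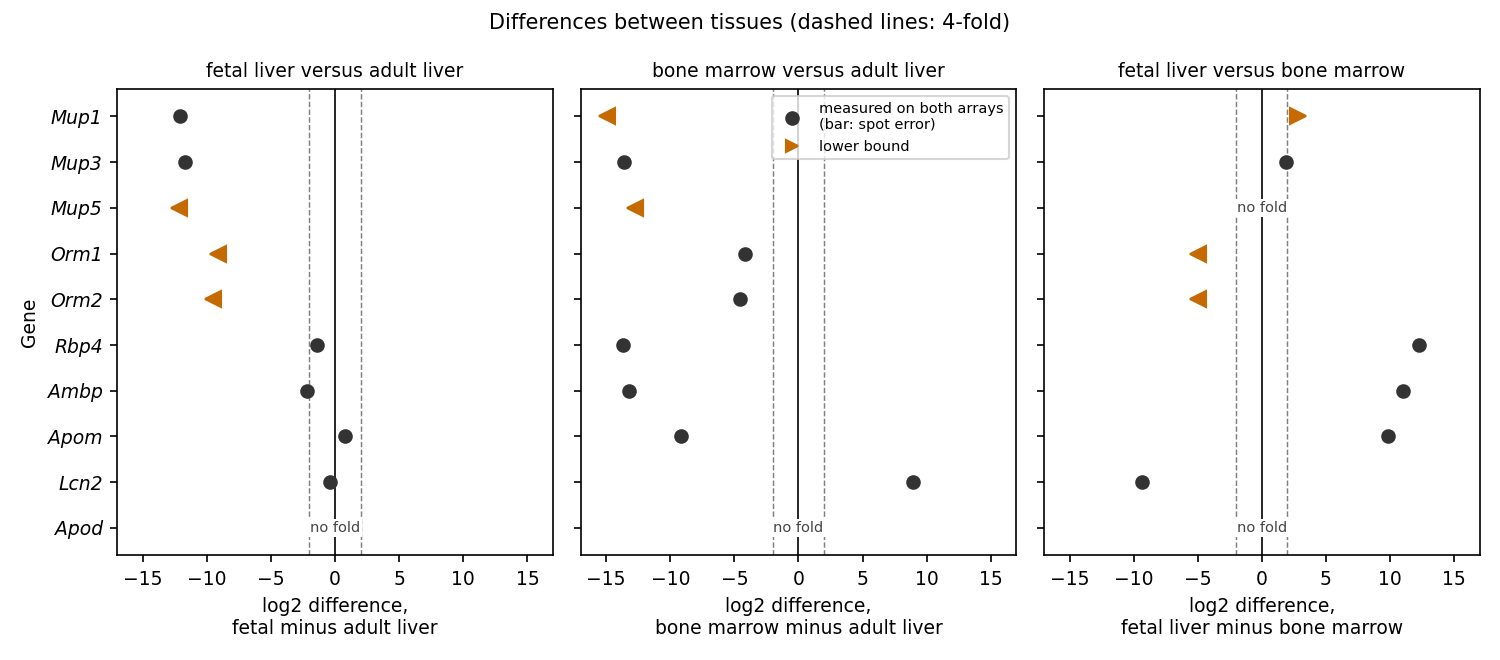
Log2 difference of each gene in the 3 comparisons of tissues, with dots for genes well above background on both arrays (bars, spot error), arrows for lower bounds pointing to the larger difference, and dashed lines at 4-fold. The Mup and Orm genes lie far to the adult side of the first panel, where Rbp4, Apom and Lcn2 lie between the dashed lines; Lcn2 is the only gene on the bone marrow side of the middle panel, and "no fold" marks genes dim on both arrays.

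Beyond the 10 genes, 17 of 39 other lipocalin genes had a named probe. Of the 10 compared between fetal and adult liver, 7 were past 4-fold towards adult liver and none towards fetal liver, against 14.2% and 12.0% of all genes, with a median log2 difference of -4.93. The numbers were the same between bone marrow and adult liver, with a median of -4.99. Of all genes, 18.8% were so towards adult liver and 15.0% towards bone marrow. Between fetal liver and bone marrow, Mup4 and C8g of 7 were at least 4-fold higher in fetal liver and none in bone marrow, against 9.29% and 8.32% of all genes. C8g, the lipocalin chain of complement component 8, read 44800 in adult liver, against 914 in fetal liver and 106 in bone marrow, with log2 differences of -6.00 for fetal minus adult liver and 4.32 for fetal liver minus bone marrow. Mup6 (40100 in adult liver) and Mup10 (75700) were not well above background in either other tissue. Lcn12 read 325, 22.1 and 67.9, and Ptgds, a prostaglandin synthase that is also a lipocalin, read 87.8, 57.0 and 90.6, within 4-fold in each comparison. The odorant-binding gene Obp2a was detected in adult liver only, at 49.8.

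Proteins that bind, carry or receive the lipocalins were followed as a list of 18 genes, all with a probe. Against adult liver, 0 of 17 were at least 4-fold higher and 9 at least 4-fold lower in fetal liver (median -2.41), where 12.0% and 14.2% of all genes were. In bone marrow 1 of 16 was higher and 11 lower (median -6.98), against 15.0% and 18.8% of all genes. Ttr, the transthyretin that keeps retinol-binding protein in the blood, read 10300 in adult liver, against 1300 in fetal liver and 5.94 in bone marrow, the last not well above background. Its log2 difference between the livers, -3.37, was larger in size than the -1.43 of Rbp4. Stra6l, a receptor gene for retinol-binding protein, read 16600, 691 and 32.9, with a log2 difference of -4.97 between the livers. Among the inter-alpha-trypsin inhibitor heavy chains that bikunin from Ambp is linked to, Itih1 differed by -5.18, Itih3 by -2.41 and Itih2, within 4-fold, by -1.16, and their relative Itih4, which is not linked to bikunin, by -5.66. C8a and C8b, partners of C8g, differed by -4.44 and -4.32. Apoa1, the main protein of the particle that carries apolipoprotein M, read 27924, 3755 and 5.68, a difference of -3.28 between the livers where that of Apom was 0.75.

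Between fetal liver and bone marrow, 9 of these 18 genes were past 4-fold towards fetal liver and Mmp9 alone towards bone marrow (-8.73), against 9.29% and 8.32% of all genes. Itih3 read 10800 against 19.9, a lower bound of 10.04 on the log2 scale. S1pr1, a receptor for the lipid on apolipoprotein M, read 753, 135 and 347 and was lower than adult liver in fetal liver (-2.87) and bone marrow (-2.71). Bsg, a surface protein known to bind apolipoprotein D, stayed within 4-fold in all 3 comparisons.

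A list of 22 regulators of these genes, 21 with a probe, was less one-sided. Against adult liver, 2 of 20 were at least 4-fold higher and 9 at least 4-fold lower in fetal liver (median -1.59), against 12.0% and 14.2% of all genes. In bone marrow 2 of 19 were higher and 8 lower (median -1.34), against 15.0% and 18.8%, so that the higher calls were no more frequent than over all genes. The growth hormone receptor gene Ghr, which acts upstream of the Mup genes, read 11400 in adult liver, against 999 in fetal liver and 244 in bone marrow, with log2 differences from adult liver of -3.90 and -7.14. Jak2, its kinase, ran the other way, at 125, 821 and 2890 (2.33 and 2.94), as did the feedback gene Cish in fetal liver (2.51). Socs2, another feedback gene of that pathway, differed from adult liver by -0.94 in fetal liver and -2.56 in bone marrow. Stat5b, the transcription factor downstream of Jak2, read 3170, 2820 and 7900 and stayed within 4-fold. The furthest apart between the livers was the repressor gene Bcl6, at 11400, 274 and 10300, with a difference of -5.77.

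Foxa2, which encodes a hepatocyte factor, had a log2 bound of -9.26 in bone marrow and lay within 4-fold in fetal liver. Cebpa, which encodes a factor shared by liver and myeloid cells, read 9070, 762 and 2150, or -3.96 in fetal liver and -3.67 in bone marrow. Cebpd, an acute phase factor, was 3.13 higher in bone marrow than in adult liver on the log2 scale and was the regulator furthest towards bone marrow against fetal liver (-4.37). The nuclear receptor genes Rora (-4.16 and -5.18) and Nr1h3 (-3.12 and -4.42) were lower in both. Between fetal liver and bone marrow, 3 of 20 regulators were at least 4-fold higher in each direction. Of all genes, 9.29% were so towards fetal liver and 8.32% towards bone marrow. The other 14 regulators did not reach 4-fold, bounds included.

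**Figure D3:**
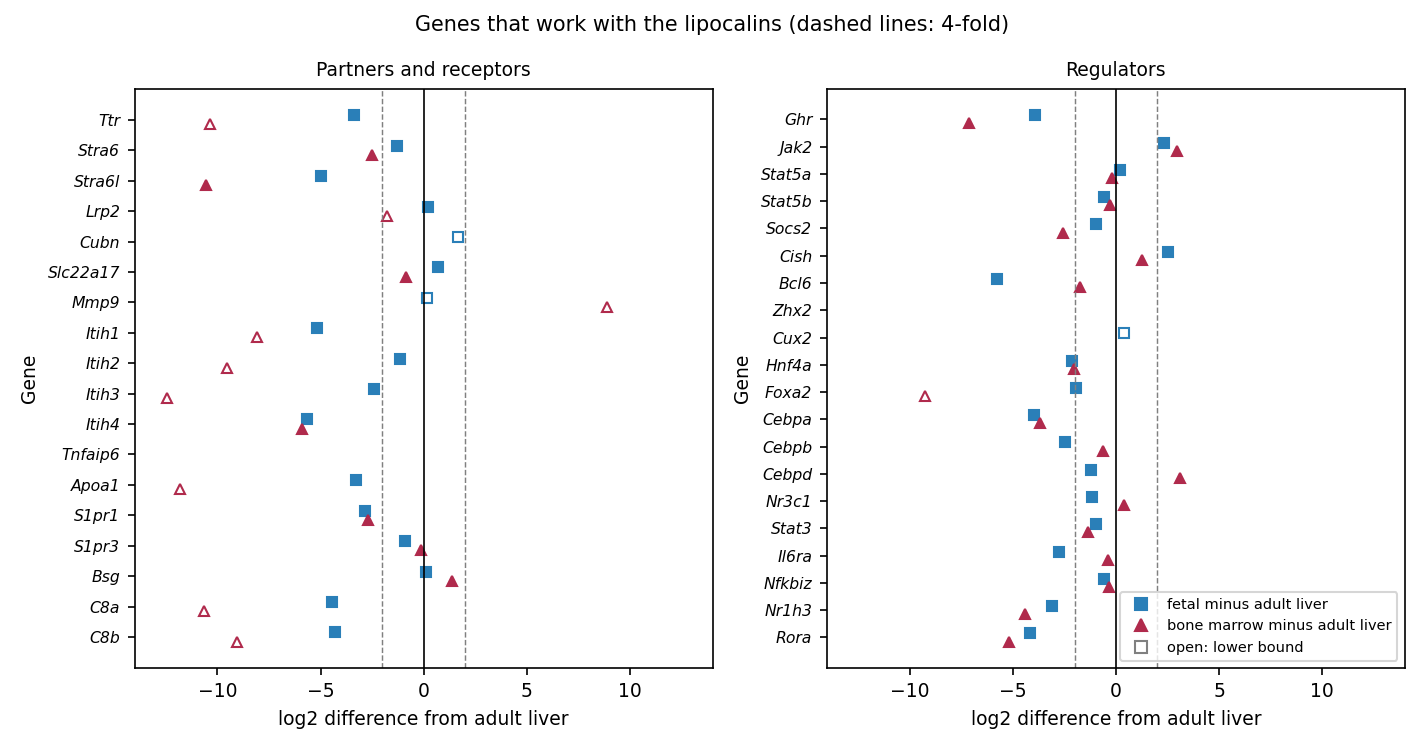
Log2 difference from adult liver of 18 partners and receptors of the lipocalins (left) and 20 of the 21 regulators (right), in fetal liver (squares) and bone marrow (triangles). Open symbols are lower bounds, and dashed lines mark 4-fold. Tnfaip6 and Zhx2, without a symbol, were dim in both livers. Their scaled bone marrow signals did not exceed the lowest scaled signal well above background in adult liver. Ttr, Stra6l, Apoa1, the Itih chains and the C8 chains lie to the left in both tissues, Mmp9 lies far to the right in bone marrow, and the regulators spread to both sides.

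The Mup, Ambp and Orm genes share 1 stretch of chromosome 4, from 59969824 to 63025038 on mm9, or 3055 kb, a stretch marked out after the values were seen. It held 15 Mup, Ambp and Orm probes, and in 15 of 15 adult liver exceeded fetal liver and bone marrow at least 4-fold, with median log2 differences of -11.71 and -13.12. Of all genes, 14.2% and 18.8% were so. In the same stretch 17 other named genes had a probe. Of the 15 compared between the livers, Kif12 (3.63) and Zfp618 (3.12) were past 4-fold towards fetal liver, Hdhd3 (-3.37) and Slc31a1 (-2.32) towards adult liver, and the median was 0.78, a share of calls near the 26.2% of all genes. Against bone marrow, Hdhd3 (-6.32), Col27a1 (-4.34) and Slc31a1 (-3.85) of 15 genes were past 4-fold towards adult liver, a share near the 18.8% of all genes. None was so towards bone marrow, against 15.0% of all genes, and the median over the 15 was 0.43. Kif12 and Zfp618, on either side of Ambp, ran opposite to it between the livers.

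**Figure D4:**
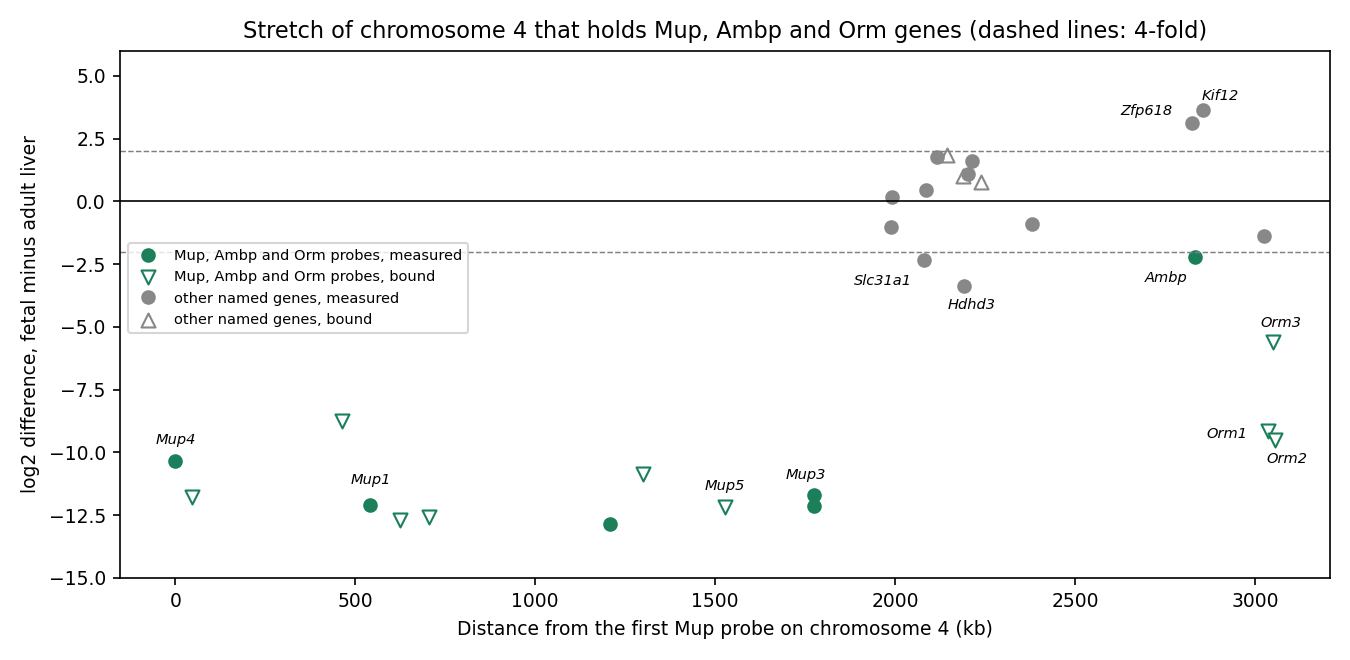
Log2 difference between fetal and adult liver in the chromosome 4 stretch, against the distance in kb from the first Mup probe; green marks the 15 Mup, Ambp and Orm probes, grey the 15 other named genes that could be compared, by 1 probe each, and open triangles are lower bounds. All 15 green points lie below the dashed 4-fold line, while most grey points lie between the dashed lines.

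For each member, the named genes nearest in pattern were found by the Euclidean distance of log2 levels over the 3 arrays, after centring each gene, among genes well above background on the same arrays. Ambp was nearest to Ahsg, at 0.12 log2 units, and to Serpina1d, at 0.42, out of 11687 genes. Rbp4 was nearest to the same pair, Serpina1d at 0.52 and Ahsg at 0.77. Apom had no neighbour as close, Serpinf2 being the nearest at 1.50. Mup3 was nearest to Serpina3k, at 0.81, and to Azgp1, at 0.88. Lcn2 was nearest to Ear10, at 0.41, and Ear1, at 0.53, ribonuclease genes that read 24.4, 19.3 and 43600, and 53.2, 38.5 and 98100. Mup1, Mup5, Orm1 and Orm2 were dim on at least 1 array, where levels have no order, so their neighbours are named without distances: Ces1c and Mbl2 for Mup1, Mug2 and Cyp3a44 for Mup5, Gm4788 for both Orm genes, and the Orm genes for each other. These distances rest on 3 arrays and are a description.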

How the data were processed

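Total RNA of adult liver, fetal liver and bone marrow, 1 sample and 1 array each, was grouped by tissue from the labels. The scanner software was Agilent Feature Extraction 10.5.1.1, per the submitters' processing notes and the file headers. The deposited processed signal is a background-subtracted intensity on a linear scale and, per the file headers, was not normalized between arrays. The authors also deposited a table with a raw intensity and a normalized ratio per array. On each array, 45018 of 45018 spots of its raw intensity column match, within 1%, the error that the scanner file gives for the processed signal, so it was used only as an alternative.

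Without control and outlier spots, the processed signal was put on the log2 scale and the array's 75th percentile subtracted (Python 3.11.15, pandas 2.3.3, numpy 2.4.6). Spots of 1 probe were averaged, and a gene took the probe well above background on most arrays, then the brightest. Of 41174 probes, 24844 were named by accession, 6045 by a current symbol and 1796 by an older one through RefSeq, and 8489 were not named. Genes dim on both arrays were not compared. A gene dim on 1 got a bound against the higher of its own signal and the lowest scaled signal well above background on that array, which lay at 18.9, 15.0 and 23.7 before scaling. Where its signal on the other array did not exceed that higher value, the gene was not compared. At least 4-fold counted as different, with 2-fold as an alternative. Alternatives changed the scaling, the background correction (normexp in limma 3.58.1, offset 50), the probe rule and the values. Scripts were checked on simulated data. Promoters were aligned end to end with Biopython 1.88. The 5 most different genes of a list at 4-fold were named, with markers of a cell type where a member is read beside them, and 2 nearest genes per member. Genes and lists were chosen with earlier results of these data known. A gene among the regulators and one among the nearest genes are not reported here.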

Additional observations from a re-analysis of the deposited data

How the results depend on the processing

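With 1 array per tissue the number of arrays limits the precision, and no left-out array or replicate block could be tried. No paired analysis was possible because each tissue has 1 sample. Over all alternatives, 190 member differences of at least 4-fold could be recomputed: 190 kept their direction and 181 stayed at least 4-fold. The exceptions were Ambp between the livers (log2 from -2.23 to -1.65, at least 4-fold in 6 of 9), Mup1 between fetal liver and bone marrow (0.64 to 2.84, in 4 of 8), and Orm1 (-1.40) and Orm2 (-1.81) between bone marrow and adult liver when scaled to spike-in controls. Among smaller differences, Lcn2 between the livers reached 0.15 and Mup3 between fetal liver and bone marrow reached -0.32. All these tallies include alternatives that could not move a value, so part of the agreement was fixed in advance. The probe rules could change only Mup3, since the other members have no second probe. Leaving out bounds changed no value that remained.

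Scaling to the spike-in controls, whose median signals were 11900, 10600 and 5350, moved the median of all genes to 0.56 (fetal minus adult liver), 2.63 (bone marrow minus adult liver) and -1.98 (fetal liver minus bone marrow), and no scaling moved it to 0.40, 1.43 and -0.97. The share of all genes at least 4-fold apart that were higher in the first-named tissue was 45.8%, 44.4% and 52.7% as reported, 64.7%, 91.5% and 4.45% with spike-ins, and 59.7%, 81.2% and 16.6% without scaling. With spike-ins 10262 genes were at least 4-fold apart between bone marrow and adult liver and 7409 between fetal liver and bone marrow, with 13 regulators in the latter; normexp correction gave 1701 genes between fetal liver and bone marrow. At 2-fold the counts of all genes were 7618 (fetal and adult liver), 8543 (bone marrow and adult liver) and 6161 (fetal liver and bone marrow), with 13 regulators in the last. Leaving out every bound kept only genes well above background on both arrays. Of the members so measured, 3 of 6 were at least 4-fold apart when the livers were compared. Bone marrow had 7 of 7 such members against adult liver and 4 of 5 against fetal liver. Over all genes the counts in this order of comparisons were 2803, 3335 and 1802. Other lipocalins gave 3, 2 and 1, and partners gave 4 in the second comparison and 2 in the third. For all genes and these lists, the numbers compared under this rule are not given here, so no share is stated.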
